A study of Homo sapiens with 2 samples.

Results

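The 7 genes examined here encode the inhibitors of cyclin-dependent kinases (CDKs), and the data show where the transcription factor E2F1 was called on chromatin at their start sites. They are CDKN1A (p21), CDKN1B (p27) and CDKN1C (p57) of the Cip/Kip family, and CDKN2A (p16 and ARF), CDKN2B (p15), CDKN2C (p18) and CDKN2D (p19) of the INK4 family. CDKN2A was followed at the start sites of both its transcripts, which gives 8 start sites in the genome build hg19. A peak was assigned to a start site when at least 1 base of it lay within 2 kb on either side. By this rule 9 peaks of the 28734 in the list belonged to the 7 genes.

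The peaks come from 1 E2F1 ChIP-seq library, in which DNA bound by E2F1 is pulled down with antibodies and sequenced. The library was made from LNCaP-abl at passages 61 to 64, a line of prostate cancer cells derived from LNCaP that grows without androgen. The cells were grown with 10% charcoal-stripped serum, kept without androgen for 3 days and precipitated with a pair of E2F1 antibodies, from Santa Cruz Biotechnology and BD Pharmingen. The other sample of the series is an input of the same cells, grown and depleted of androgen in the same way but with no antibody. It was not analysed here, so no comparison with input was made, and whether the authors' calls and scores used it is not stated. No value below has a replicate, an error or a test. The list gives a score for each peak and no read counts, so depth is unknown.

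CDK inhibitors act on the same pathway that controls E2F1. INK4 proteins bind CDK4 and CDK6, Cip/Kip proteins bind cyclin-CDK complexes more widely, and both keep the retinoblastoma protein (RB) in the form that holds E2F1 in check. ARF, the other product of CDKN2A, is not a CDK inhibitor: it binds MDM2 and so stabilises p53. E2F1 in turn is known for activating genes of S phase entry, and ARF is among its known targets.

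E2F1 peaks were called at 7 of the 8 start sites, and each of the 7 genes had at least 1. The exception was the p16 start site of CDKN2A. The strongest peaks were at CDKN2D and CDKN2C, while those at ARF and CDKN2B were the weakest of the strongest peaks at the 7 sites. For scale, 3.93% of 749111 windows of the same size, laid end to end along the nuclear chromosomes, held a peak. Most such windows are not at promoters, and the share of all promoters with a peak was not analysed here, so nothing particular to CDK inhibitors is read from the count. Start sites with a peak were also 7 with windows of 0.5, 1 and 5 kb, against 1.39, 2.25 and 8.64% of background windows, and 7 among the top 50% of peaks by score, against 2.16%. The peaks at 3 of the 8 start sites, CDKN2D, CDKN2C and CDKN1B, were in the top 10% of the list by score, against 0.46% of the windows.

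**Figure D1:**
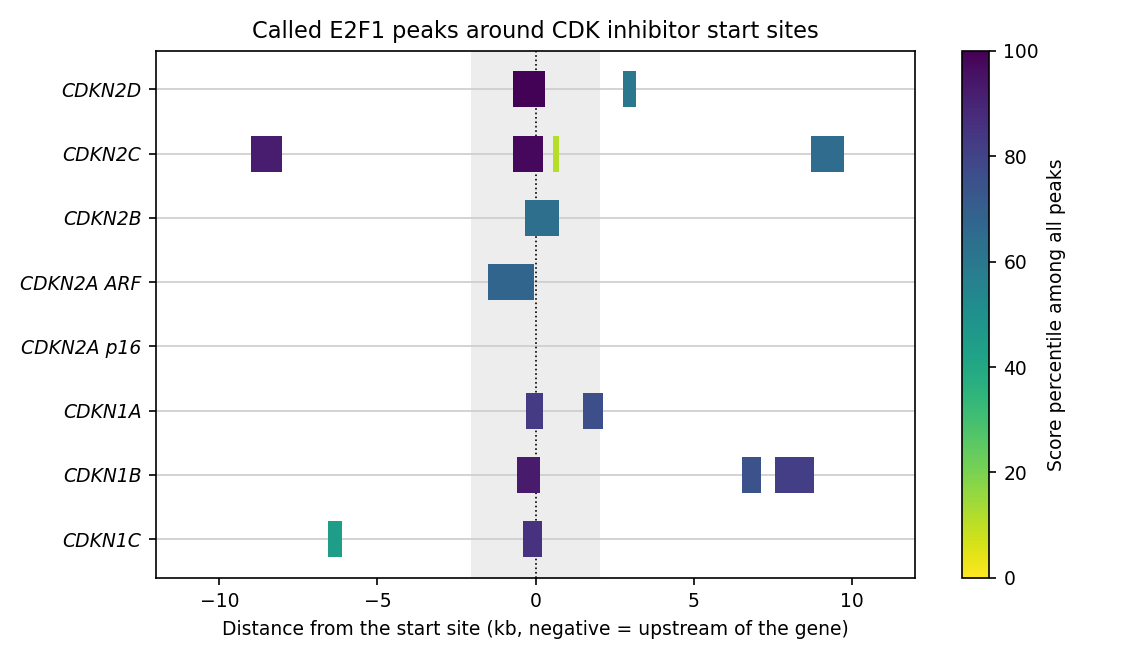
Called E2F1 peaks within 12 kb of the 8 start sites, with the distance from the start site in kb on the horizontal axis, upstream of the gene to the left, and colour for the score percentile among all 28734 peaks. The grey band is the window of 2 kb on either side. A peak lies in the band in every row but that of CDKN2A p16, and the darkest are at CDKN2D and CDKN2C.

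Because the highest scores were at CDKN2D and CDKN2C and the missing peak was at CDKN2A, the promoters of these 3 genes are shown, as RefSeq gives them in build GRCh38.p14, from 250 bases before a start to 50 bases after it. The table held 9 such windows for 6 of the 7 genes. Its starts were not matched to the hg19 start sites: the CDKN2A starts are 20467 bp apart in the table and 19358 bp apart by the rule. CDKN2C has 3 starts in the table, of which the GC-rich one is shown. Capitals mark GC boxes (GGGCGG, or CCGCCC on the other strand) and 7-letter E2F sequences, which are the 8-letter consensus (TTTCCCGC, TTTGGCGC, TTTCGCGC or TTTGCCGC) without its first T, read on both strands.
CDKN2D, chr19:10568930-10569229, minus strand: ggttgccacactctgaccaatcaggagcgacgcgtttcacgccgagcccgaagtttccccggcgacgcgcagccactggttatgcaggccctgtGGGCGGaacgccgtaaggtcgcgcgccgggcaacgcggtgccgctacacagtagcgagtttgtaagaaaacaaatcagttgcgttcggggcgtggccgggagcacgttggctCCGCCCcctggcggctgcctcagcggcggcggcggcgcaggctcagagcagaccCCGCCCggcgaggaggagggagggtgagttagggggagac
CDKN2C, chr1:50968456-50968755, plus strand: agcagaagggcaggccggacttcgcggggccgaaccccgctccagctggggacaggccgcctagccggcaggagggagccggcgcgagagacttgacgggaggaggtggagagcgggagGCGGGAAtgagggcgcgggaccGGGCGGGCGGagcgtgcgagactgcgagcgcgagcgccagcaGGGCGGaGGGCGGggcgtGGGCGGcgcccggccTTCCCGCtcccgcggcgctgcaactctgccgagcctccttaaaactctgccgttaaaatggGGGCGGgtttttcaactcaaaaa
CDKN2A, start of the p16 transcript, chr9:21974808-21975107, minus strand: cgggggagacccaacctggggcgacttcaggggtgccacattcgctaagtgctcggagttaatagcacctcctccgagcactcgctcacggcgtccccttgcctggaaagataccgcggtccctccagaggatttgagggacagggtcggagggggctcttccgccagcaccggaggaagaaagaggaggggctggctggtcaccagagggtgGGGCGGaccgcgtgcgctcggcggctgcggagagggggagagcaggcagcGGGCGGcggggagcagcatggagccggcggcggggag
CDKN2A, upstream start, chr9:21995275-21995574, minus strand: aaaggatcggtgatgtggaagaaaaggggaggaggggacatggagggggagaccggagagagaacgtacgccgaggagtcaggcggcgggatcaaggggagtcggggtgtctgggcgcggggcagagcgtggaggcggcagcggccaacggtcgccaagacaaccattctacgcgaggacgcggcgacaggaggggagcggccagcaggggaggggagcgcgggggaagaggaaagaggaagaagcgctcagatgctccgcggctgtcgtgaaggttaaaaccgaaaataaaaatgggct

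The CDKN2C window shown held 2 of the 7-letter E2F sequences. They were GCGGGAA from 131 to 125 bases before the start and TTCCCGC from 34 to 28 bases before it. No other of the 9 windows held one, those of the other CDKN2C starts included, while 13.0% of 35114 RefSeq promoter windows did. The 8-letter consensus, which contains the 7-letter one, was in 0 of the 9 windows and in 3.31% of all. CDKN2D, with the highest score of the group, had no match to these letters in its 300 bases. GC boxes were in 7 of the 9 windows, covering all 6 genes, against 45.0% of all windows. The CDKN2C window shown had 6 of them, some overlapping each other, and the upstream CDKN2A window had none. The letters CCAAT, on either strand, were in 3 windows, those of CDKN1B, CDKN2D and another start of CDKN2C, and in 34.6% of all. TATAAA, on either strand, was in 0 of the 9 and in 11.5% of all.

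Base composition was read from the same windows, and a relation to the scores was not tested. GC content was 68.0% at CDKN2D, 71.3% at the CDKN2C start shown, 62.3% at CDKN1B, 74.3% at CDKN1A and 67.3% at CDKN2B. It was 69.0% at the p16 start, 63.3% at the upstream CDKN2A start, and 46.3 and 49.3% at the other CDKN2C starts. The median over all promoter windows was 58.7%. The ratio of observed to expected CpG was 1.05 at CDKN2D, 1.01 at the CDKN2C start shown, 1.00 at CDKN1B and 0.72 at CDKN1A. It was 1.13 at the upstream CDKN2A start, 0.76 at the p16 start and 0.74 at CDKN2B, against a median of 0.58. At the other CDKN2C starts of the table the ratio was 0.53 and 0.60, below that at p16, and which of the 3 starts matches the hg19 site is not known. The upstream CDKN2A window had the highest ratio of all 9.

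CDKN2D encodes p19, an inhibitor of CDK4 and CDK6 whose expression is known to be periodic in the cell cycle. Its peak ran on chromosome 19 from 10679373 to 10680365 in hg19 (all peak coordinates are hg19 and 1-based). It scored 252, and 152 of all peaks scored higher, which places it above 99.5% of the list. The score is the authors' own value for the peak and serves here only to rank peaks within their list. The peak was 993 bp wide and contained the start site, from 710 bp upstream to 282 bp downstream. Among the 2002 peaks whose width was within 10% of its own, it still scored above 98.7%. On chromosome 19, 8 of 1531 peaks scored higher, and the nearest of them was 586 kb away. Of 78 other peaks within 1 Mb, 1 was stronger. A weaker peak, with a score of 35.2, lay 2778 bp downstream of the start site and so just outside the window. In the RefSeq table the start of KRI1 lies 2969 bp downstream of that of CDKN2D in GRCh38, and whether that peak belongs to it was not tested.

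CDKN2C, which encodes p18, came next. Its main peak, on chromosome 1 from 51433656 to 51434614, scored 192, above 97.8% of the list. It was 959 bp wide, contained the start site and reached from 711 bp upstream to 247 bp downstream. No peak within 1 Mb was stronger, out of 20, and the nearest stronger one was 2227 kb away. A second peak began 291 bp beyond the end of the first, from 539 to 744 bp downstream of the start site. It was 206 bp wide with a score of 6.74, above 11.0% of the list. The list gives no summits or signal, so a separate site and the flank of the main one cannot be told apart.

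Other peaks lay farther from the CDKN2C start. One with a score of 125, above 92.4% of the list, ended 8010 bp upstream of the start site, and another with a score of 42.6, above 65.1%, began 8721 bp downstream. In GRCh38 the RefSeq table gives CDKN2C a start 7961 bp upstream of the one shown and gives FAF1, on the opposite strand, a start 8439 bp upstream of it. These distances were measured in the other build and were not joined to the peaks. With 4 peaks within 10 kb, CDKN2C had the most of the 8 start sites, where positions spaced every 10 kb along chromosome 1 had 0.245 on average. Within 100 kb it had 5, against 2.39, and 81.5% of the positions had fewer. Such counts, here and below, include any peak at the start site itself, and most of the positions compared are not at promoters.

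CDKN1B, which encodes p27, had the strongest peak of the Cip/Kip genes. It ran on chromosome 12 from 12869724 to 12870439, scored 127 and stood above 92.7% of the list. It was 716 bp wide and lay from 578 bp upstream to 137 bp downstream of the start site. None of 41 other peaks within 1 Mb was stronger, and the nearest stronger peak was 1648 kb away. A pair of further peaks followed downstream, from 6528 to 7126 bp with a score of 60.6 and from 7581 to 8805 bp with a score of 77.5. In GRCh38 the RefSeq table places a start of LOC105369663, on the opposite strand, 7755 bp downstream of the CDKN1B start. It places a start of APOLD1 8549 bp downstream. Whether these peaks belong to either was not tested. Within 100 kb of the CDKN1B start site 10 peaks were called, against 2.20 on average along chromosome 12, where 97.2% of positions had fewer.

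CDKN1C and CDKN1A were close to each other in score. CDKN1C, an imprinted gene that encodes p57, had 1 peak on chromosome 11 from 2906865 to 2907457. This peak scored 90.0, above 85.7% of the list, was 593 bp wide and lay from 394 bp upstream to 198 bp downstream of the start site. The next peak upstream was 6123 bp away with a score of 19.4, and the next downstream was 77.9 kb away.

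CDKN1A, the p53 target that encodes p21, had 2 peaks of similar size within its window. The first, on chromosome 6 from 36646171 to 36646734, contained the start site, reaching from 316 bp upstream to 247 bp downstream. Its score was 80.6, above 82.8% of the list. The second, from 36647997 to 36648613, began 1510 bp downstream of the start site, and 126 of its 617 bases lay beyond the window. It scored 63.0, above 76.1% of the list, and was the peak nearest to the edge of the window on the inside. Between them 1262 bp were free of peaks. Outside the window, the next peak upstream was 55.0 kb away and the next downstream 80.5 kb away, with scores of 11.1 and 15.7. Within 100 kb of the start site 7 peaks were called, against 1.93 on average along chromosome 6, where 95.2% of positions had fewer. Within 50 kb there were only the 2 peaks of the window, against 0.968, and 75.3% of the positions had fewer. In the RefSeq table the start of DINOL, a noncoding RNA on the opposite strand, lies 155 bp upstream of that of CDKN1A, so a peak over the start site cannot be given to 1 of these genes alone.

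**Figure D2:**
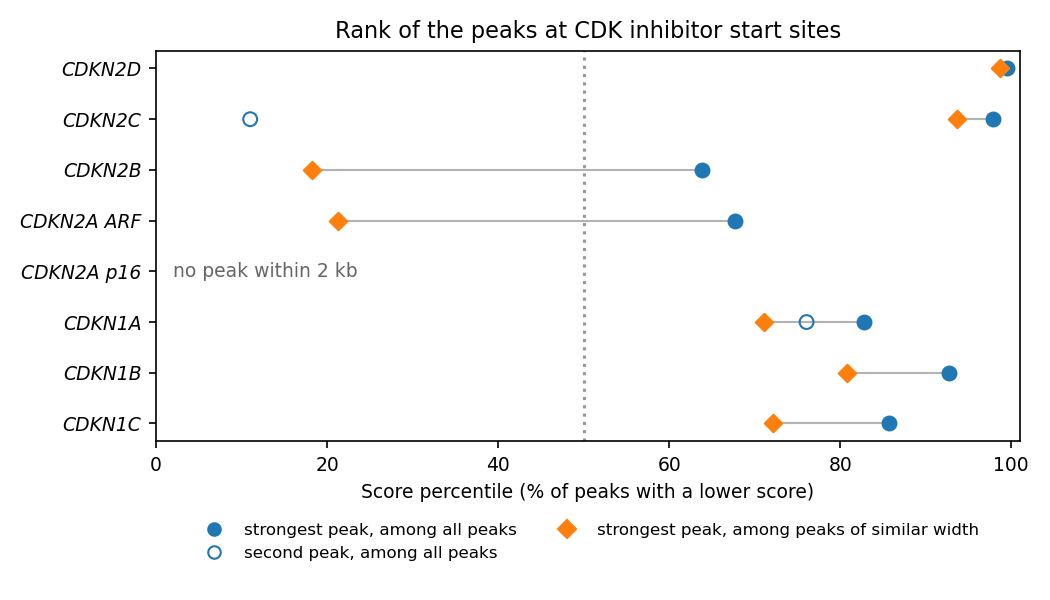
Score percentile (the percent of peaks with a lower score) of the peaks at the 8 start sites, as filled circles for the strongest peak and open circles for a second peak, both among all 28734 peaks, and as diamonds for the strongest peak among peaks whose width was within 10%. The filled circles run from 63.9 at CDKN2B to 99.5 at CDKN2D, the open ones stand at 11.0 for CDKN2C and 76.1 for CDKN1A, and the diamonds of CDKN2B and CDKN2A ARF fall to 18.2 and 21.3.

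CDKN2A and CDKN2B lie side by side on chromosome 9, and the 3 start sites there differed. The ARF start had a peak from 21994529 to 21995988 with a score of 47.0, above 67.7% of the list. The CDKN2B start had a peak from 22008582 to 22009641 with a score of 40.6, above 63.9%. CDKN2B encodes p15, an INK4 protein known to be induced by TGF-beta. The p16 start, at 21975132, had no peak within 2 kb, nor within 5 kb. The peak nearest to it was the one at ARF, 19.4 kb upstream, and the next downstream was 162 kb away with a score of 23.1. A site below the threshold for calling cannot be told from one that is not bound, since the list holds called peaks only.

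The ARF and CDKN2B peaks were the widest of the 9. The ARF peak was 1460 bp wide, above 99.4% of the list by width, and that of CDKN2B was 1060 bp, above 94.9%. In 20 bins of peaks by width, the median score rose up to 72.4 in the bin with a median width of 713 bp. It changed little beyond that and was 73.0 in the widest bin, with a median width of 1192 bp. Compared with peaks of their own width, the ARF and CDKN2B peaks scored low. Among 301 peaks of similar width, ARF stood above 21.3%, where the median score was 71.6. Among 1614 such peaks, CDKN2B stood above 18.2%, where the median score was 74.5. The strongest peaks at the other 5 start sites with a peak all scored above the median of their own width, from 71.1% at CDKN1A to 98.7% at CDKN2D. Whether breadth here reflects several sites or 1 was not tested.

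**Figure D3:**
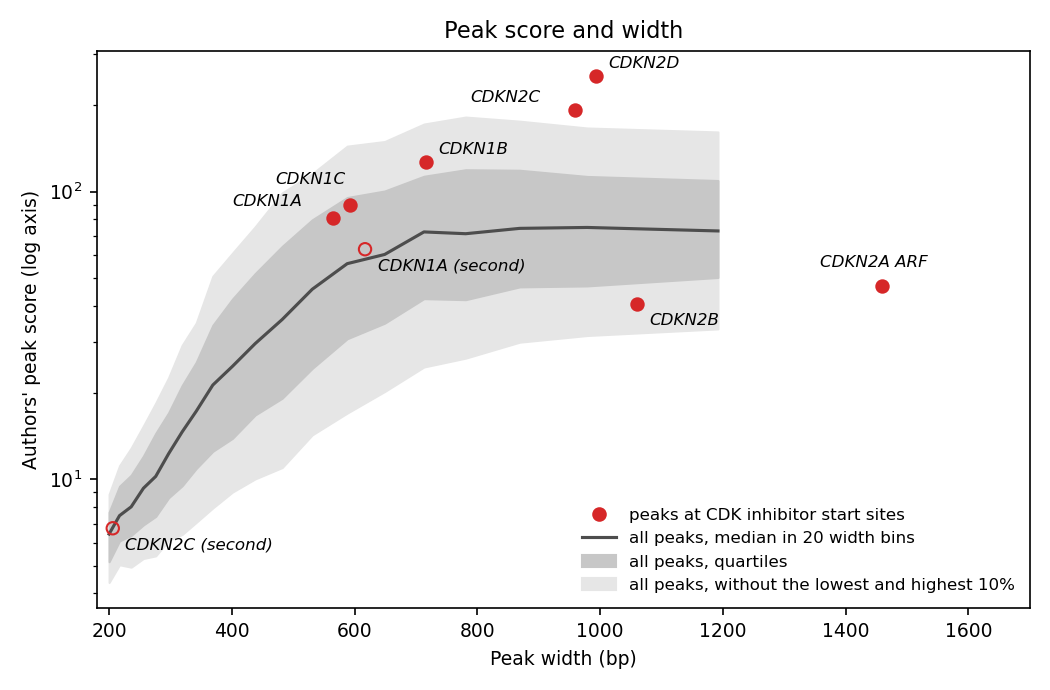
Authors' score (log axis) against peak width in bp for the 9 peaks at CDK inhibitor start sites (red, open for a second peak) and for all peaks (median, quartiles and the range without the lowest and highest 10%, in 20 bins by width, drawn at the median width of the bin). CDKN2D and CDKN2C lie above that range, CDKN2B lies below the lower quartile, and CDKN2A ARF, at 1460 bp, lies to the right of the last bin drawn.

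Relative to the start site of the rule, the ARF peak was also placed differently from the rest. It began 39 bp upstream of the ARF start and extended to 1498 bp upstream, so this start site was outside it. This placement depends on the start used. The ARF peak lay from 13324 to 14783 bp downstream of the CDKN2B start site. The hg19 ARF start site, 14822 bp from that of CDKN2B, is outside this span. The upstream CDKN2A start of the RefSeq table, 13981 bp from the CDKN2B start in GRCh38, falls inside it. By that distance the peak would contain the start, but the builds were not aligned to each other. The strongest peaks at the other 6 start sites contained the start. Their centres lay between 232 bp upstream at CDKN2C and 201 bp downstream at CDKN2B, whereas the centre of the ARF peak was 769 bp upstream. ARF is known to share its promoter region with CDKN2B-AS1, a noncoding RNA read in the opposite direction. In the RefSeq table of GRCh38 the upstream CDKN2A start and that of CDKN2B-AS1 are 533 bp apart, so a peak there cannot be given to 1 of them.

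Over the 234 kb that span the 3 start sites with 100 kb on either side, 3 peaks were called, at ARF, at CDKN2B, and 32.6 kb upstream of CDKN2B. The last was 200 bp wide, the lowest width in the list, with a score of 5.03. Each of the 3 start sites had 3 peaks within 100 kb, against 1.53 on average along chromosome 9, where 77.0% of positions had fewer. The nearest peak stronger than the one at ARF was 192 kb away, with a score of 112. By comparison, the CDKN2D start had 12 peaks within 100 kb, against 5.20 on average along chromosome 19, where 90.6% of positions had fewer.

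**Figure D4:**
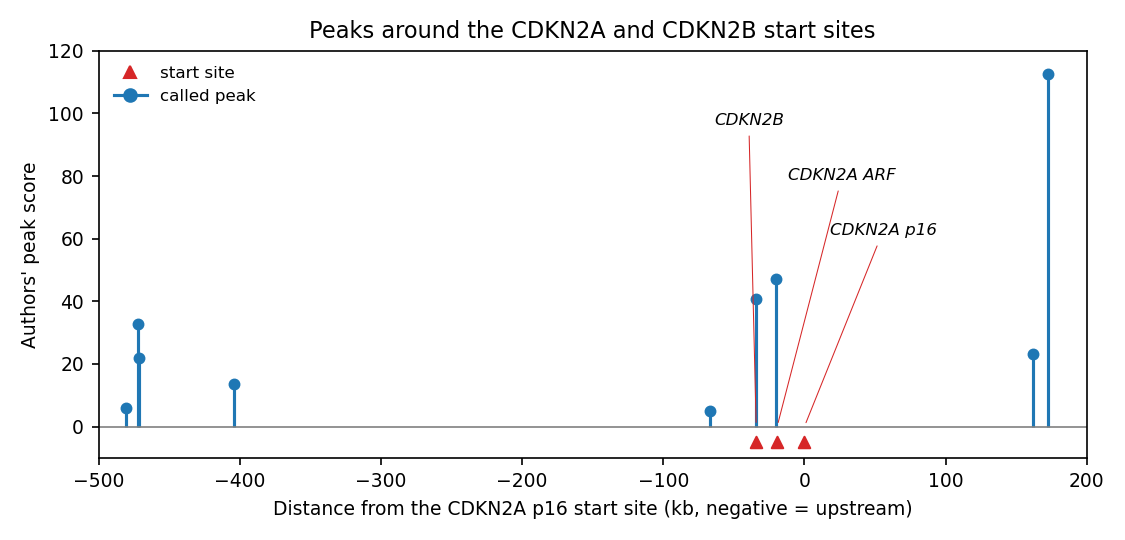
Scores of called peaks by distance in kb from the CDKN2A p16 start site on chromosome 9, with upstream to the left. Triangles mark the start sites of CDKN2B, CDKN2A ARF and CDKN2A p16. Peaks stand at ARF (score 47.0) and CDKN2B (score 40.6), and none stands at p16.

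Some peaks in the list share exactly the same score with many others. None of the 9 peaks carried a score held by at least 25 peaks, and each had a score that no other peak had. Ranked within their own chromosomes, the strongest peaks kept places close to those in the whole list, from 63.1% at CDKN2B to 99.4% at CDKN2D. The order of CDKN1A and CDKN1C changed, with 85.1 and 83.3% within chromosomes against 82.8 and 85.7% in the whole list.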

How the data were processed

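The submitters' processing notes name the build hg19 and the tools Bowtie, MACS2 2.0.9 and CASAVA 1.6.0. What each did, the threshold for peaks and the use of the input are not stated there. The deposited list gives each peak's position and the authors' score, whose scale no header names. Starts were taken as 0-based and are printed 1-based.

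Percentiles are the percent of the 28734 peaks with a lower score, computed in Python 3.11.15 with pandas 2.3.3 and numpy 2.4.6. Overlap and ranking were tested on simulated data. Background windows of 4001 bp covered chromosomes 1 to 22, X and Y between their outermost peaks, unsequenced stretches included. The positions spaced every 10 kb also ran between the outermost peaks of a chromosome, unsequenced stretches included. Distances run from the start site to the nearer edge of a peak. Those to a nearest stronger peak, and the counts within 1 Mb, run between the facing edges of the peaks instead. Strands came from RefSeq, except that of CDKN1C, which is background knowledge.

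Named genes were all 7 members. They, their start sites and the motifs were chosen with earlier results of these data known. Other genes of the pathway were not analysed here, because no hg19 annotation was at hand, and neither were protein sequences. No test was made with 1 library. Alternatives changed the window, the overlap, the score threshold, the ranking set and the motif length.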

Additional observations from a re-analysis of the deposited data

How the results depend on the processing

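The count of 7 start sites with a peak was also 7 with windows of 0.5, 1 and 5 kb, with the peak centre within 2 kb and among the top 50% of peaks by score. It was 6 when the start site had to lie inside the peak, which left out ARF at the start site of the rule. It was 3 among the top 10%, where fewer peaks follow from the construction. The median percentile over the 7 strongest peaks, 85.7, was 85.1 among peaks of the same chromosome, 84.4 without scores held by at least 25 peaks and 72.1 among peaks of similar width. The last change was largest at ARF and CDKN2B. With the 7-letter E2F sequence, 1 of 9 promoter windows had a match, against 0 with the 8-letter one. No paired analysis was possible because peaks of a single library were at hand, and for the same reason no replicate could be left out. What depth limits is unknown without read counts.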
